A study of Mus musculus with 12 samples.

Results

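The expression of 36 genes of glycolysis, the pentose phosphate pathway and the control of pyruvate was examined by bulk RNA-seq in tumor cells isolated from MC38 tumors, with the RAC1 A159V mutation or without it. The genes were taken by symbol, and each of the 36 matched 1 row of a table of 33219 features. Of these, 35 were among the 14340 genes that passed the filter on low counts, and Pdk4 was not. MC38 is a mouse colon adenocarcinoma line. The A159V cells were a CRISPR-Cas9 knock-in at the endogenous Rac1 locus, reported as homozygous, and the study states that it shows data of clone 9 of 3 clones unless it says otherwise, so genotype and clone cannot be told apart here. The 12 samples formed 4 groups of 3 C57BL/6 mice, aged 6 to 8 weeks: WT tumors given an IgG isotype control (WT IgG), WT tumors given anti-PD1 (WT anti-PD1), and A159V tumors given either antibody (A159V IgG and A159V anti-PD1). The study's scheme for these tumors was injection of the cells under the skin, 100 μg of antibody every 3 days from day 3, and harvest on day 13, after which tumor cells were isolated with a kit. The comparisons asked whether the A159V mutation, anti-PD1 or both went with a different expression of the genes through which these cells take up and use glucose.

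Glycolysis splits glucose into pyruvate in the cytosol. Cells take glucose up through facilitative transporters, trap it by phosphorylation and commit it at phosphofructokinase, and the lower enzymes then recover ATP and NADH. Pyruvate is either reduced to lactate, which leaves the cell through monocarboxylate carriers, or enters mitochondria, where the pyruvate dehydrogenase complex turns it into acetyl-CoA unless pyruvate dehydrogenase kinases switch the complex off. The pentose phosphate pathway branches off at glucose 6-phosphate and makes NADPH and ribose. Most steps have several isozymes encoded by separate genes, and many tumors are known for a high flux from glucose to lactate also where oxygen is present.

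Total counts ranged from 14053582 to 21949942 per sample, and the 36 genes held between 1.71% and 2.04% of the counts in the 6 WT samples and between 2.19% and 2.63% in the 6 A159V samples, so these groups did not overlap. Correlations within groups were lowest for WT IgG replicate 1 (r = 0.964 to 0.975) and A159V IgG replicate 5 (r = 0.972 to 0.973), and no pair of samples agreed within sampling noise. Rac1 itself did not pass the test (log2 fold change -0.11 under IgG, edgeR adjusted p = 0.62), and a knock-in of a point mutation is not checked by the level of its gene. The 6 epithelial markers summed to at most 4.22 CPM in any sample, so the labelled adenocarcinoma could not be checked by them. The 8 fibroblast markers summed to 570.5 to 1195 CPM in WT IgG and 791 to 1658 CPM in WT anti-PD1, against 249 to 316 and 262 to 345 CPM in the A159V groups, and all 8 were detected. By the threshold given below, 5 of the 8 were lower and 0 higher in A159V IgG, with 2 of the 8 log2 fold changes positive. That is 62.5% called, against 28.0% of all genes. In A159V anti-PD1 5 were lower and 1 was higher, 75% against 21.4% of all genes. The 16 leukocyte markers summed to 32.9 to 37.7 CPM in WT IgG and 51.4 to 78.2 CPM in WT anti-PD1, against 48.4 to 64.4 and 49.1 to 54.1 CPM in the A159V groups, with the B cell marker Ms4a1 at 0 in all 12 samples and Cd3e of T cells at 0 in A159V anti-PD1. Single markers went both ways. By the threshold given below, 2 of 9 tested were higher and 2 lower in A159V IgG, 44.4% against 28.0% of all genes. In A159V anti-PD1 4 were lower and 0 higher, 44.4% against 21.4% of all genes. Adipocyte markers summed to 1.20 to 3.55 CPM in WT and 7.19 to 12.7 CPM in A159V samples, erythrocyte markers to 10.3 to 23.9 and 5.34 to 8.98 CPM, and endothelial markers to 17.01 to 26.3 and 19.4 to 23.3 CPM. Of 3 endothelial markers tested, 2 were lower and 0 higher in A159V anti-PD1, 66.7% against 21.4% of all genes, and 0 were called in A159V IgG. The mitochondrial share of counts was 2.89% to 4.70% in WT samples and 0.832% to 3.06% in A159V samples. The part of these differences in the results below was not tested, and in bulk samples fewer cells of a type and less RNA per cell cannot be told apart.

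Levels between genes were compared per length, as RPKM (CPM scaled by TMM, the trimmed mean of M-values, and divided by the kilobases of merged exons). Over the 12 samples, 9 of the 36 genes averaged above 100 RPKM and together made up 86.3% of the summed level of the pathway. Gapdh, which oxidizes glyceraldehyde 3-phosphate, led with a median of 968 RPKM, followed by the phosphoglycerate kinase Pgk1 (674), the pyruvate kinase Pkm (634), the lactate dehydrogenase Ldha (592), the enolase Eno1 (560.04), the aldolase Aldoa (526), the mutase Pgam1 (512), the isomerase Tpi1 (395) and the lactate exporter Slc16a3 (131). The ranges over the 12 samples overlapped between all neighbours in this order from Gapdh to Tpi1, and Slc16a3 lay wholly below Tpi1. The order among the abundant genes depends on the length used. Merged exons and longest transcript have 5379 and 2027 bases for Eno1, 5001 and 2432 for Pkm, 4133 and 3289 for Gapdh, and 2244 and 1825 for Pgk1. With the longest transcript, Eno1 and Pkm would stand above Gapdh, so that Gapdh would not lead. Ldha and Aldoa would then also stand above Pgk1. At the other end, 9 genes averaged under 10 RPKM, down to the transporter Slc2a3 with a median of 0.331 RPKM and the kinase Pdk4 with 0.0149 RPKM. Pkm is 1 gene with 2 splice forms, M1 and M2, which counts per gene do not separate.

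Under IgG, 8 of the 35 genes tested were higher in A159V cells and 1 was lower. A DEG needed an adjusted p below 0.05 together with a log2 fold change beyond 0.3 in size. The 8 were the glucose transporter Slc2a1, the phosphofructokinase subunit Pfkp, Aldoc, Eno1, the lactate carrier Slc16a1, the pyruvate dehydrogenase subunit Pdha1, and G6pdx and Pgd, the oxidative enzymes of the pentose phosphate pathway. The 1 lower gene was Eno3. The 9 DEGs are 25.7% of the genes tested, and over all 14340 genes 28.0% were called, so the share was near the background. Called higher were 15.6% of all genes and called lower 12.4%. The median log2 fold change was 0.27 over the 35 genes and 0.02 over all genes, 27 of the 35 values were positive, and they ranged from -0.86 to 0.89. The A159V samples lay wholly above the WT samples for 14 of the 35 genes and wholly below for 1, against 19.8% and 16.0% of all genes.

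Under anti-PD1, 9 genes were higher in A159V cells and 1 was lower. Pfkp, Aldoc, Eno1, G6pdx and Pgd were called again, and Tpi1, Ldha, Slc16a3 and the transketolase Tkt were called in addition, while the lower gene was Pdk2. The 10 DEGs are 28.6% of the genes tested, against 21.4% of all genes, of which 11.2% were higher and 10.2% lower. Over the 35 genes the log2 fold changes had a median of 0.35, against 0.06 over all genes, and again 27 were positive. The A159V samples lay wholly above the WT samples for 20 genes and wholly below for 2, against 32.6% and 23.5% of all genes. The 5 genes called under both antibodies are 55.6% of the DEGs under IgG and 50% of those under anti-PD1. These comparisons share no sample, but they share the clone. The sign was the same under both antibodies for 29 genes, 24 higher and 5 lower in A159V. The shares of all genes that were called under both antibodies, or had the same sign, were not computed. Whether these overlaps exceed the background is therefore not known. The plot of fold changes under IgG and anti-PD1 shows the genes side by side.

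**Figure D1:**
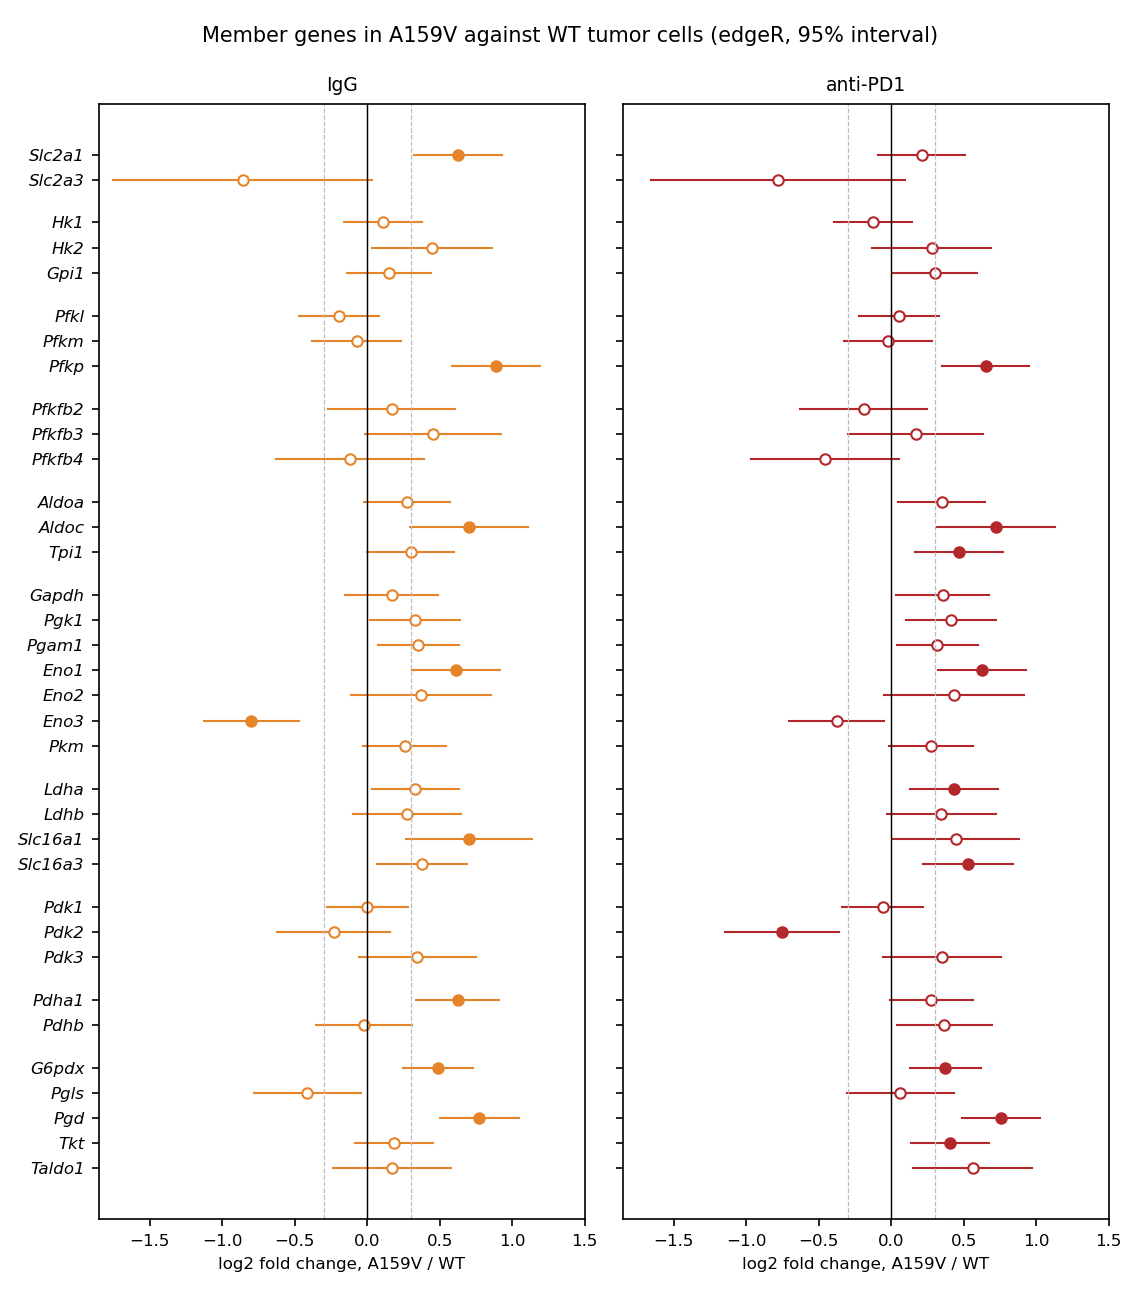
Log2 fold change of A159V against WT for the 35 genes tested, under IgG (left) and under anti-PD1 (right), from the edgeR fit to all 12 samples. Genes are grouped by step from glucose uptake to the pentose phosphate pathway, lines are 95% intervals, filled points are DEGs and dashed lines mark 0.3. Most points lie right of 0, with Eno3 (IgG) and Pdk2 (anti-PD1) as the filled points left of it.

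Promoter sequence was examined for motifs that are known in genes of this pathway, ACGTG and GCGTG, the cores of the hypoxia response element bound by HIF, and CACGTG, the E-box bound by MYC, USF and related factors, each read on both strands. RefSeq promoter windows of 300 bases (GRCm38.p6, 250 before the start and 50 from it) were found for 35 of the 36 genes, in 52 windows, but not for Slc2a3. At least 1 window held ACGTG in 54.3% of the 35 genes, against 28.8% of the genes tested that had a window and 21.8% of all genes. The corresponding shares were 74.3%, 54.6% and 35.2% for GCGTG and 17.1%, 11.4% and 8.09% for CACGTG, which contains ACGTG on both strands. A gene with more windows can hold a match more often, and the 10605 genes tested that had a window had 13532 windows. Counted by window, the shares in the 35 genes and in genes tested were 44.2% and 24.8% for ACGTG, 61.5% and 48.9% for GCGTG, and 11.5% and 9.61% for CACGTG. The median GC content was 60.8% in the windows of the 35 genes, 60.3% in those of genes tested and 52.7% in all. A match is a description of letters and not a binding site, and DEGs also lacked them. No window of Pfkp, Eno1, Pdha1 or Pgd held ACGTG. Shown are the stretches without annotated exon bases before the start of 4 genes, Pfkp and Pdha1 with the most GCGTG of the genes higher in A159V IgG (4 in each window), Slc2a1 as the main transporter, and Ldha with 2 E-boxes. In them, capitals mark ACGTG or GCGTG on either strand, and the sequences are written on the strand of the gene at chr13:6648778-6649021 on the minus strand, chrX:160138431-160138680 on the minus strand, chr4:119108495-119108710 on the plus strand and chr7:46845554-46845803 on the plus strand.
Pfkp: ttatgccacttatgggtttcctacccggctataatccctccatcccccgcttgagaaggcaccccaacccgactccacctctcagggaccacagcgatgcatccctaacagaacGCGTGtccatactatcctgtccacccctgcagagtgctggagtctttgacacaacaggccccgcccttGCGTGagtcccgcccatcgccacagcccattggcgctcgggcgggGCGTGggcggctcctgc
Pdha1: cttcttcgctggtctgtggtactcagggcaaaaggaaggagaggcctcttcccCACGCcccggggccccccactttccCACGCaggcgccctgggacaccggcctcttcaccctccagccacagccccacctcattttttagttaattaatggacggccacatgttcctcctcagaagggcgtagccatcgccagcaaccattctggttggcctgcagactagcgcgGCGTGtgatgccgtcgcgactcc
Slc2a1: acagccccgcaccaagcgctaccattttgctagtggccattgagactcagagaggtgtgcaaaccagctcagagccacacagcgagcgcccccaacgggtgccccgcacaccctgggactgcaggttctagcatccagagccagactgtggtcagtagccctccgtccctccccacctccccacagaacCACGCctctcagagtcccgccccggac
Ldha: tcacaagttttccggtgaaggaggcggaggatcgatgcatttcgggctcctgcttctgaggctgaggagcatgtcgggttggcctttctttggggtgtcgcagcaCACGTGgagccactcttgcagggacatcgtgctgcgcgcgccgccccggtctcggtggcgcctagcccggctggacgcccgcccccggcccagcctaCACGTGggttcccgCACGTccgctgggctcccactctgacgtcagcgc

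Of the facilitative glucose transporters examined, Slc2a1 had the higher mRNA level. Slc2a1 (GLUT1, chromosome 4, 119108711 to 119137983 in GRCm38, the build of all positions here) measured 214, 218 and 232 CPM in WT IgG, 288, 271 and 208 CPM in WT anti-PD1, 339.5, 312 and 374 CPM in A159V IgG and 279.9, 320.2 and 286 CPM in A159V anti-PD1. All A159V IgG samples exceeded all WT IgG samples, while under anti-PD1 the A159V samples overlapped the WT samples, of which replicates 1 and 2 were above any WT IgG sample. The log2 fold change between genotypes was 0.63 ± 0.14 (SE, edgeR adjusted p = 0.0064) under IgG and 0.21 ± 0.14 (SE, edgeR adjusted p = 0.31) under anti-PD1, but the difference between these effects did not pass its own test (interaction -0.42, 95% interval -0.84 to 0.01, edgeR adjusted p = 0.29). Slc2a3 (GLUT3), the high-affinity transporter of neurons and leukocytes, stayed between 1.06 and 4.42 CPM in all samples and made up 0.634% ± 0.301 (SD, n = 3) of the summed RPKM of both transporters in WT IgG and 0.228% ± 0.107 in A159V IgG, without overlap. Its log2 fold changes of -0.86 and -0.78 under IgG and anti-PD1 had 95% intervals of -1.76 to 0.04 and -1.66 to 0.10 and did not pass the test.

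Hexokinases phosphorylate glucose, and Hk2 is the isozyme known for induction in tumors. Hk2 measured 147, 230.2 and 253 CPM in WT IgG, 235, 261 and 202 CPM in WT anti-PD1, 269, 269 and 321 CPM in A159V IgG and 328, 258 and 259.8 CPM in A159V anti-PD1. WT IgG replicate 1 was the lowest of the 12 samples, and all A159V IgG samples were above all WT IgG samples. The log2 fold change was 0.45 ± 0.19 (SE, edgeR adjusted p = 0.1) under IgG and 0.28 ± 0.19 (SE, edgeR adjusted p = 0.32) under anti-PD1, neither past the threshold. Hk1, the broadly expressed isozyme, ranged from 139 to 186 CPM, and its log2 fold changes were 0.11 and -0.13. As a share of the summed RPKM of the pair, Hk2 made up 60.2%, 67.2% and 67.1% in WT IgG against 70.9%, 69.2% and 71.2% in A159V IgG, and 66.9%, 66.7% and 63.3% in WT anti-PD1 against 74.1%, 71.3% and 69.3% in A159V anti-PD1. The A159V samples were above the WT samples of the same antibody in each case, by 5.59 and 5.95 percentage points (two-sided exact permutation p = 0.1 each, the smallest that 3 against 3 samples allow). These shares use merged exons, 8532 bases for Hk1 and 5969 for Hk2, while the longest transcripts have 4278 and 5513 bases. In some samples, such as WT IgG replicate 1, which isozyme is the larger depends on that choice of length. Gpi1, which turns glucose 6-phosphate into fructose 6-phosphate, ranged from 492 to 766 CPM, and its log2 fold changes of 0.15 (edgeR adjusted p = 0.42) and 0.30 (edgeR adjusted p = 0.13) did not pass.

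Phosphofructokinase, which commits the sugar to glycolysis, is a tetramer of liver (Pfkl), muscle (Pfkm) and platelet (Pfkp) subunits. Pfkp (chromosome 13, 6579768 to 6648777) measured 199, 259 and 217 CPM in WT IgG, 261, 267 and 217 CPM in WT anti-PD1, 389.9, 394 and 466 CPM in A159V IgG and 391, 383 and 395 CPM in A159V anti-PD1. Each A159V sample exceeded each WT sample, with the lowest A159V value at 383 CPM and the highest WT value at 267 CPM. For Pfkp the log2 fold change was 0.89 ± 0.14 (SE, edgeR adjusted p = 0.00089) under IgG, the largest of the genes examined in that comparison, and 0.65 ± 0.14 (SE, edgeR adjusted p = 0.0056) under anti-PD1. Pfkl, the most abundant subunit, measured 392, 349.6 and 322 CPM in WT IgG, 313, 339 and 295 CPM in WT anti-PD1, 309, 284 and 335 CPM in A159V IgG and 299, 335 and 349 CPM in A159V anti-PD1. Its groups overlapped in every comparison, and its log2 fold changes were -0.20 under IgG and 0.05 under anti-PD1. Pfkm stayed between 42.1 and 59.6 CPM, with log2 fold changes of -0.07 and -0.02. The share of Pfkp was 17.1%, 22.3% and 19.7% in WT IgG and 33.1%, 33.9% and 34.3% in A159V IgG, and 24.3%, 23.3% and 21.4% in WT anti-PD1 and 33.3%, 30.9% and 30.2% in A159V anti-PD1. The shares of Pfkp did not overlap between the genotypes, with differences of 14.05 and 8.48 percentage points (exact permutation p = 0.1 each), whereas the share of Pfkl under IgG was 62.2% ± 4.70 (SD, n = 3) in WT and 50.4% ± 1.93 in A159V. The summed RPKM of the 3 subunits was 1.08 times the WT value under IgG, with overlapping samples, and 1.15 times under anti-PD1.

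**Figure D2:**
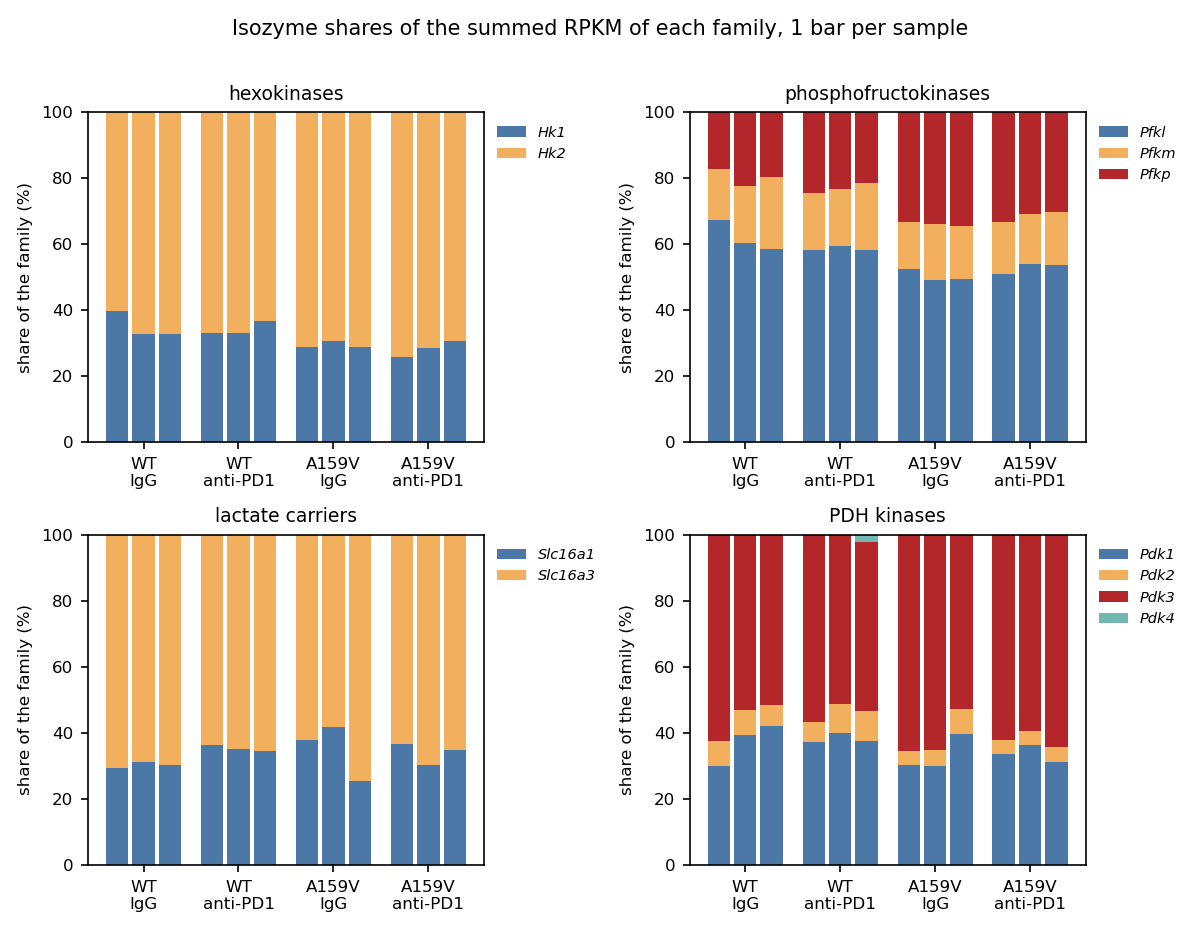
Shares of the isozymes in the summed RPKM of their family, in percent, for hexokinases, phosphofructokinase subunits, lactate carriers and pyruvate dehydrogenase kinases, 1 bar per sample and 3 samples per group. Pfkp (red) took 17.1% to 24.3% in the WT samples and 30.2% to 34.3% in the A159V samples. Hk2 (light orange) took the larger part of the hexokinases in each sample when lengths are those of merged exons.

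The bifunctional PFKFB enzymes make and break fructose 2,6-bisphosphate, the activator of phosphofructokinase. Pfkfb3, the isozyme with the strongest kinase activity, measured 25.9, 30.6 and 50.3 CPM in WT IgG, 45.7, 34.5 and 44.2 CPM in WT anti-PD1, 47.6, 52.8 and 45.9 CPM in A159V IgG and 48.9, 38.8 and 52.1 CPM in A159V anti-PD1. WT IgG replicate 4 lay among the A159V samples, so the groups overlapped, and the log2 fold change was 0.45 ± 0.22 (SE, edgeR adjusted p = 0.14) under IgG and 0.17 under anti-PD1. Pfkfb2, an isozyme known from heart, ranged from 18.4 to 42.4 CPM and Pfkfb4 from 6.50 to 12.8 CPM. Neither passed the test in a genotype comparison, with log2 fold changes of 0.17 and -0.19 for Pfkfb2 and -0.12 and -0.46 for Pfkfb4.

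Aldolase cleaves fructose 1,6-bisphosphate, and Tpi1 interconverts the resulting triose phosphates. Aldoa, the main aldolase, measured 1579, 1286 and 1215 CPM in WT IgG, 1342, 1343 and 1173 CPM in WT anti-PD1, 1653, 1536 and 1744 CPM in A159V IgG and 1525, 1711 and 1675 CPM in A159V anti-PD1. WT IgG replicate 1 lay within the A159V range, whereas the A159V anti-PD1 samples were all above the WT anti-PD1 samples, and the log2 fold changes of 0.27 (edgeR adjusted p = 0.16) and 0.35 (edgeR adjusted p = 0.089) did not pass. Aldoc, the aldolase known from brain, measured 13.3, 15.2 and 9.08 CPM in WT IgG, 14.7, 12.8 and 13.1 CPM in WT anti-PD1, 17.8, 19.2 and 23.97 CPM in A159V IgG and 19.99, 22.4 and 24.8 CPM in A159V anti-PD1. The A159V samples exceeded the WT samples under either antibody, at levels near 1% of the RPKM of both aldolases. For Aldoc the log2 fold change was 0.70 ± 0.19 (SE, edgeR adjusted p = 0.017) under IgG and 0.72 ± 0.19 (SE, edgeR adjusted p = 0.017) under anti-PD1. Tpi1 measured 1126, 934 and 856 CPM in WT IgG, 879, 859.6 and 757 CPM in WT anti-PD1, 1232, 1103 and 1256 CPM in A159V IgG and 1134, 1072 and 1241 CPM in A159V anti-PD1. It overlapped between genotypes under IgG, where WT IgG replicate 1 was above the lowest A159V sample, and did not overlap under anti-PD1. Its log2 fold change was 0.30 ± 0.14 (SE, edgeR adjusted p = 0.12) under IgG and 0.47 ± 0.14 (SE, edgeR adjusted p = 0.031) under anti-PD1.

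Of the 7 genes of lower glycolysis, 1 was higher and 1 was lower in A159V IgG, and 1 was higher in A159V anti-PD1. These are 28.6% and 14.3% of the 7, against 28.0% and 21.4% of all genes. Eno1, the main enolase (chromosome 4, 150236721 to 150248879), measured 2693, 2457 and 2118 CPM in WT IgG, 2322, 2274 and 1977 CPM in WT anti-PD1, 3904, 3345 and 3878 CPM in A159V IgG and 3332, 3338 and 3487 CPM in A159V anti-PD1. Each A159V sample exceeded each WT sample. The log2 fold change was 0.61 ± 0.14 (SE, edgeR adjusted p = 0.0071) under IgG and 0.63 ± 0.14 (SE, edgeR adjusted p = 0.0074) under anti-PD1. The retrogene Eno1b, nearly identical in sequence, held 162138 counts over the 12 samples, 25% of those of Eno1, so reads of the pair may be divided between their rows. Eno1b also passed, with 0.52 (edgeR adjusted p = 0.022) and 0.64 (edgeR adjusted p = 0.0096), and Eno1 stayed called under both antibodies when the counts of the pair were summed.

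Eno3, the enolase of skeletal muscle, moved the other way at a low level, with 22.5, 19.3 and 19.9 CPM in WT IgG, 13.5, 17.03 and 16.98 CPM in WT anti-PD1, 12.4, 10.7 and 12.4 CPM in A159V IgG and 10.7, 12.1 and 13.7 CPM in A159V anti-PD1. The WT IgG samples were all above the A159V IgG samples, while WT anti-PD1 replicate 1 lay among the A159V anti-PD1 samples. For Eno3 the log2 fold change was -0.80 ± 0.15 (SE, edgeR adjusted p = 0.0026) under IgG and -0.38 ± 0.15 (SE, edgeR adjusted p = 0.093) under anti-PD1. Beside it, the 8 skeletal muscle markers, all of which were detected, summed to 8.56 to 24.2 CPM in WT IgG, 3.61 to 12.4 CPM in A159V IgG, 5.37 to 7.08 CPM in A159V anti-PD1 and 3.16 to 126 CPM in WT anti-PD1, and their part in Eno3 was not tested. Of these markers 1 was lower in A159V IgG, 12.5% against 28.0% of all genes called. In A159V anti-PD1 6 were lower, 75% against 21.4% of all genes, and 0 were higher in either comparison. WT anti-PD1 replicate 3, with the highest muscle sum of 126 CPM, had 16.98 CPM of Eno3, below each WT IgG sample. Eno2, the neuronal enolase, ranged from 10.5 to 20.6 CPM and did not pass (0.37 and 0.43).

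The other enzymes of the lower pathway had smaller values that did not pass. Gapdh measured 4635, 3618 and 3603 CPM in WT IgG, 3482, 3349.8 and 2986 CPM in WT anti-PD1, 4559, 3900.4 and 4865 CPM in A159V IgG and 4100.1, 4255 and 4195 CPM in A159V anti-PD1, with log2 fold changes of 0.17 (edgeR adjusted p = 0.42) and 0.35 (edgeR adjusted p = 0.11). WT IgG replicate 1 lay within the A159V IgG range, and the genotypes did not overlap under anti-PD1. Pgk1, which makes the first ATP of the pathway, had log2 fold changes of 0.33 (edgeR adjusted p = 0.1) and 0.41 (edgeR adjusted p = 0.058). Its processed copy Pgk1-rs7 held 140460 counts, 43.1% of those of Pgk1. Pgam1, which moves the phosphate of 3-phosphoglycerate, had values of 0.35 (edgeR adjusted p = 0.06) and 0.32 (edgeR adjusted p = 0.096), and Pkm, which makes pyruvate, 0.26 (edgeR adjusted p = 0.16) and 0.27 (edgeR adjusted p = 0.16). For Pgk1, Pgam1 and Pkm each A159V sample was above each WT sample of the same antibody.

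**Figure D3:**
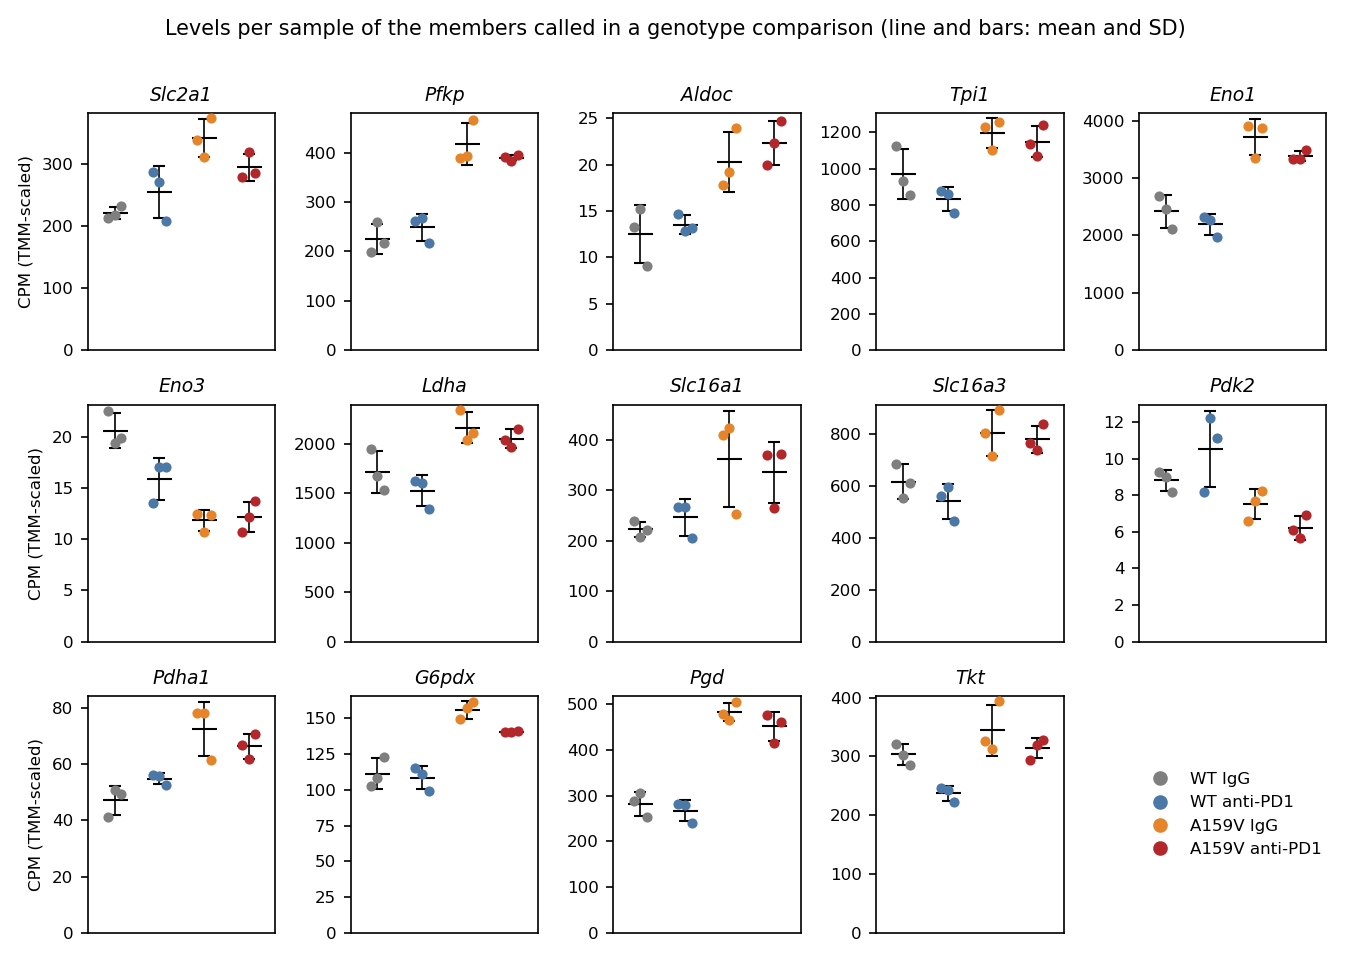
CPM (scaled by TMM, linear axes from 0) of the 14 genes called in at least 1 of the genotype comparisons, 1 point per sample, with the mean and SD of each group of 3. For Pfkp, Eno1, G6pdx, Pgd and Aldoc the 6 A159V samples lie above the 6 WT samples, and for Eno3 and Pdk2 the A159V IgG and A159V anti-PD1 means are the lower ones.

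Lactate dehydrogenase A reduces pyruvate to lactate. Ldha measured 1948, 1678 and 1531 CPM in WT IgG, 1624, 1603 and 1342 CPM in WT anti-PD1, 2345, 2036 and 2112 CPM in A159V IgG and 2037, 1969 and 2153 CPM in A159V anti-PD1. The A159V samples were above the WT samples under either antibody, and the log2 fold change passed under anti-PD1, at 0.43 ± 0.14 (SE, edgeR adjusted p = 0.044), and not under IgG, at 0.33 ± 0.14 (SE, edgeR adjusted p = 0.093). Ldhb, the isozyme that favors lactate as substrate, ranged from 35.8 to 58.0 CPM, with log2 fold changes of 0.27 and 0.35 that did not pass. Its share of the summed RPKM of the pair under IgG was 5.13% ± 0.517 (SD, n = 3) in WT and 5.01% ± 0.660 in A159V, and under anti-PD1 5.37% ± 1.07 in WT and 5.02% ± 0.696 in A159V, and all groups overlapped.

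Lactate leaves the cell through Slc16a1 (MCT1), which carries it both ways, and Slc16a3 (MCT4), the exporter of glycolytic cells. Slc16a1 measured 238, 207 and 222 CPM in WT IgG, 267, 268 and 205 CPM in WT anti-PD1, 410.01, 424 and 253 CPM in A159V IgG and 369, 266 and 372 CPM in A159V anti-PD1. A159V IgG replicate 5 and A159V anti-PD1 replicate 2 were much lower than the other A159V samples, and the latter overlapped WT anti-PD1. For Slc16a1 the log2 fold change was 0.70 ± 0.20 (SE, edgeR adjusted p = 0.022) under IgG and 0.45 ± 0.20 (SE, edgeR adjusted p = 0.13) under anti-PD1. Slc16a3 measured 685, 553 and 609.7 CPM in WT IgG, 559, 597 and 466 CPM in WT anti-PD1, 803, 712 and 889.6 CPM in A159V IgG and 765, 735 and 835 CPM in A159V anti-PD1. Its A159V samples lay above the WT samples under either antibody, and the log2 fold change was 0.38 ± 0.14 (SE, edgeR adjusted p = 0.065) under IgG and 0.53 ± 0.14 (SE, edgeR adjusted p = 0.021) under anti-PD1. The genotypes overlapped in the share of Slc16a1 among the 2 carriers, which was 38.02%, 41.7% and 25.4% in A159V IgG, with replicate 5 as the lowest.

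Pyruvate dehydrogenase kinases turn off the pyruvate dehydrogenase complex. By RPKM, Pdk3 and Pdk1, a target of HIF, were the main kinases. Pdk3 measured 64.4, 51.3 and 52.6 CPM in WT IgG, 60.3, 57.5 and 51.3 CPM in WT anti-PD1, 82.2, 83.6 and 48.2 CPM in A159V IgG and 73.4, 64.8 and 77.2 CPM in A159V anti-PD1, with A159V IgG replicate 5 below the WT samples. Its log2 fold changes of 0.35 (edgeR adjusted p = 0.19) and 0.35 (edgeR adjusted p = 0.2) did not pass. Pdk1 stayed between 94.3 and 136 CPM, with log2 fold changes of 0.002 (95% interval -0.28 to 0.28) and -0.06 (95% interval -0.34 to 0.22). Pdk2 measured 9.29, 8.99 and 8.18 CPM in WT IgG, 8.18, 12.2 and 11.1 CPM in WT anti-PD1, 6.61, 7.68 and 8.24 CPM in A159V IgG and 6.10, 5.63 and 6.90 CPM in A159V anti-PD1. Under anti-PD1 each A159V sample was below each WT sample, and under IgG the groups overlapped. The log2 fold change of Pdk2 was -0.76 ± 0.18 (SE, edgeR adjusted p = 0.011) under anti-PD1 and -0.23 ± 0.18 (SE, edgeR adjusted p = 0.36) under IgG. Pdk4, a kinase of fasting and fatty acid use, had 0 counts in each WT IgG sample, 1, 3 and 51 counts in WT anti-PD1, 3, 1 and 1 in A159V IgG and 2, 0 and 1 in A159V anti-PD1, and was not tested. Its 51 counts were in WT anti-PD1 replicate 3, the library with the highest sum of skeletal muscle markers, and the part of muscle cells in these counts was not tested.

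Pdha1 and Pdhb encode the subunits of the E1 enzyme of the pyruvate dehydrogenase complex. Pdha1 measured 41.1, 50.9 and 49.2 CPM in WT IgG, 56.01, 55.8 and 52.6 CPM in WT anti-PD1, 77.9, 78.1 and 61.5 CPM in A159V IgG and 66.6, 61.7 and 70.6 CPM in A159V anti-PD1. Each A159V sample was above each WT sample of the same antibody, though A159V IgG replicate 5 was nearer to WT than the other A159V IgG samples. For Pdha1 the log2 fold change was 0.62 ± 0.13 (SE, edgeR adjusted p = 0.0048) under IgG and 0.28 ± 0.13 (SE, edgeR adjusted p = 0.15) under anti-PD1. Pdhb, whose product pairs with that of Pdha1, measured 105, 83.8 and 72.9 CPM in WT IgG, 71.7, 72.1 and 65.3 CPM in WT anti-PD1, 92.1, 95.2 and 70.04 CPM in A159V IgG and 89.2, 86.5 and 93.8 CPM in A159V anti-PD1. It overlapped between genotypes under IgG, with A159V IgG replicate 5 as the lowest A159V sample and WT IgG replicate 1 as the highest of all, and its log2 fold changes were -0.02 (edgeR adjusted p = 0.92) and 0.37 (edgeR adjusted p = 0.1). Exons of Pdha1 overlap those of Map3k15 on the opposite strand over 603 bases, and no strand setting of the counting was stated.

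The pentose phosphate pathway had 2 of 5 genes higher in A159V IgG, against 15.6% of all genes, and 3 of 5 higher in A159V anti-PD1, against 11.2%. G6pdx, the rate-limiting dehydrogenase (chromosome X, 74409483 to 74429194), measured 103, 108 and 123 CPM in WT IgG, 115, 111 and 99.3 CPM in WT anti-PD1, 149, 157 and 162 CPM in A159V IgG and 140.3, 141 and 141 CPM in A159V anti-PD1. Each A159V sample exceeded each WT sample. The log2 fold change was 0.49 ± 0.11 (SE, edgeR adjusted p = 0.0077) under IgG and 0.37 ± 0.11 (SE, edgeR adjusted p = 0.032) under anti-PD1. Exons of G6pdx overlap those of Ikbkg on the opposite strand over 418 bases. Pgd, which makes the second NADPH and releases ribulose 5-phosphate (chromosome 4, 149149991 to 149166771), measured 289, 305 and 253 CPM in WT IgG, 282, 279 and 241 CPM in WT anti-PD1, 479, 465 and 504 CPM in A159V IgG and 477, 415 and 462 CPM in A159V anti-PD1. The highest WT value was 305 CPM and the lowest A159V value 415 CPM. For Pgd the log2 fold change was 0.77 ± 0.12 (SE, edgeR adjusted p = 0.001) under IgG and 0.76 ± 0.12 (SE, edgeR adjusted p = 0.0013) under anti-PD1.

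Pgls, the lactonase between these dehydrogenases, was not called from all samples. It measured 125, 105 and 73.1 CPM in WT IgG, 73.9, 75.6 and 68.8 CPM in WT anti-PD1, 73.7, 68.6 and 85.6 CPM in A159V IgG and 69.4, 80.4 and 78.05 CPM in A159V anti-PD1. WT IgG replicates 1 and 2 were above all other samples, and the log2 fold change was -0.41 ± 0.17 (SE, edgeR adjusted p = 0.088) under IgG and 0.06 under anti-PD1. Pgls was called lower under IgG in 7 of 18 alternatives, among them DESeq2, upper-quartile scaling, a minimum of 10 counts in every sample, and the fits without WT IgG replicate 4 or A159V IgG replicate 5. Exons of Pgls share 776 bases with Fam129c on the same strand. Tkt, which moves carbon units between sugars in the non-oxidative branch, measured 321, 303 and 286 CPM in WT IgG, 246, 243 and 222 CPM in WT anti-PD1, 327, 313 and 394 CPM in A159V IgG and 295, 319.6 and 327 CPM in A159V anti-PD1. WT and A159V overlapped under IgG and not under anti-PD1, where the WT values were the lowest of the 12 samples, and the log2 fold change was 0.18 ± 0.12 (SE, edgeR adjusted p = 0.28) under IgG and 0.40 ± 0.12 (SE, edgeR adjusted p = 0.035) under anti-PD1. Taldo1, the transaldolase of the same branch, ranged from 115 to 233 CPM, with the extremes in WT anti-PD1 replicate 3 and WT IgG replicate 1. Its log2 fold changes were 0.17 (edgeR adjusted p = 0.52) and 0.56 (edgeR adjusted p = 0.051).

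Summed by step, the RPKM of all 36 genes was 5825, 5064 and 4766 in WT IgG against 6737, 6072 and 6664 in A159V IgG, and 5010.2, 4915 and 4230.3 in WT anti-PD1 against 6078, 6080.03 and 6366 in A159V anti-PD1. The A159V samples were above the WT samples of the same antibody, 1.24-fold under IgG and 1.31-fold under anti-PD1 (two-sided exact permutation p = 0.1 each, the smallest possible). Under IgG the ratio was 1.54 for glucose uptake, 1.29 for lactate, 1.24 for lower glycolysis and 1.24 for the pentose phosphate pathway, all without overlap, and under anti-PD1 it was 1.15, with overlap, and 1.36, 1.31 and 1.42, without. The PFKFB regulators and the pyruvate dehydrogenase kinases overlapped between genotypes under either antibody. Under upper-quartile scaling, which shifted the all-gene median under IgG (log2) from 0.02 to -0.12, the sum of all 36 genes was 0.17 higher in A159V IgG on the log2 scale, and that of the phosphofructokinase subunits turned to -0.03. The plot of summed levels by step gives each sample.

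**Figure D4:**
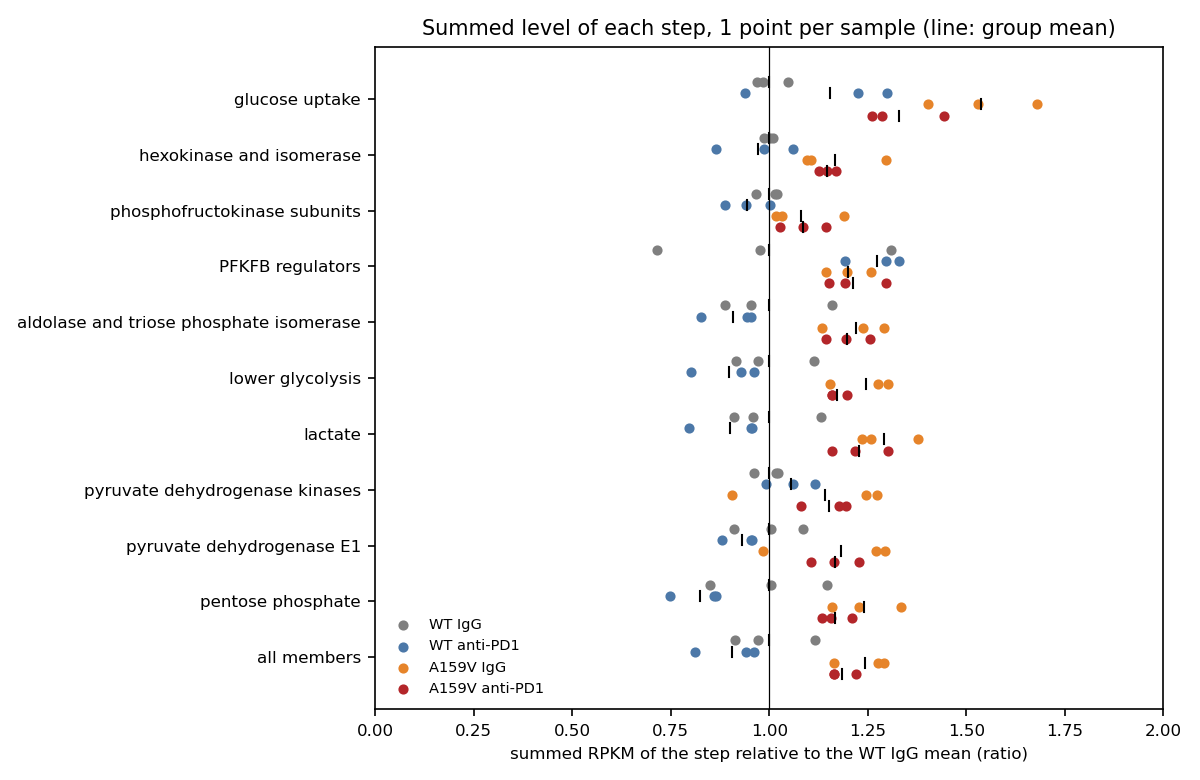
Summed RPKM of the genes of each step, as a ratio to the WT IgG mean (linear axis from 0), 1 point per sample with the group mean as a line. For all 36 genes together, the 6 A159V samples lie above the WT samples.

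Anti-PD1 itself was compared with IgG within each genotype, on samples that the genotype comparisons also use. In WT cells none of the 35 genes was called by edgeR, against 0.628% of all genes, and 5 had an unadjusted p under 0.05, against 3937 of all genes. DESeq2 called 1, Tkt, against 1441 of all genes. The log2 fold changes lay between -0.48 and 0.50, with a median of -0.07. Pfkfb2 was the highest, at 0.50 ± 0.20 (SE, edgeR adjusted p = 0.14), with 18.4, 33.5 and 35.4 CPM in WT IgG and 42.4, 41.6 and 39.6 CPM in WT anti-PD1, which did not overlap. The 5 genes of the pentose phosphate pathway had negative values, with Pgls at -0.48 (edgeR adjusted p = 0.11), Taldo1 at -0.43 (edgeR adjusted p = 0.17) and Tkt at -0.36 (edgeR adjusted p = 0.11). For Tkt, Gapdh, Eno3 and Pdhb the WT anti-PD1 samples were all below the WT IgG samples, and for Pfkfb2 and Pdha1 all above, against 15.8% and 18.8% of all genes. The share of Slc16a1 among the lactate carriers was 29.5%, 31.1% and 30.4% in WT IgG and 36.5%, 35.01% and 34.5% in WT anti-PD1, without overlap (exact permutation p = 0.1). Of 9 leukocyte markers tested, 3 were called higher in this comparison, 33.3% against 0.628% of all genes called, and their part in these values was not tested. Without WT IgG replicate 4, 5 genes were called in this comparison, Pfkfb2 and Pfkfb3 higher and Pgls, Taldo1 and Tkt lower, against 23.6% of all genes.

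In A159V cells none of the 35 genes was called for anti-PD1 against IgG by edgeR, against 0 of 14340 genes, or by DESeq2, against 2 genes, and none had an unadjusted p under 0.05, against 521 of all genes. The log2 fold changes lay between -0.27 and 0.35, with a median of -0.04, and G6pdx was the only gene without overlap, with 149, 157 and 162 CPM with IgG and 140.3, 141 and 141 CPM with anti-PD1, and its log2 fold change was -0.15 (95% interval -0.39 to 0.09). Of all genes, 4.51% were wholly higher and 6.50% wholly lower in that comparison. The interaction, the difference of the anti-PD1 effect between genotypes, was called for none of the 35 genes by edgeR, against 0.00697% of all genes, or by DESeq2, against 2.05% of all genes. None of the 35 had an unadjusted p under 0.05 in edgeR, against 2517 of all genes. Without WT IgG replicate 4, Pgls was called, against 8.07% of all genes. The smallest adjusted p from all samples was, in edgeR, 0.29, for Slc2a1. The intervals were wide: for Pgls the interaction was 0.48 (95% interval -0.05 to 1.00) and for Pdk2 -0.52 (-1.08 to 0.03).

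**Figure D5:**
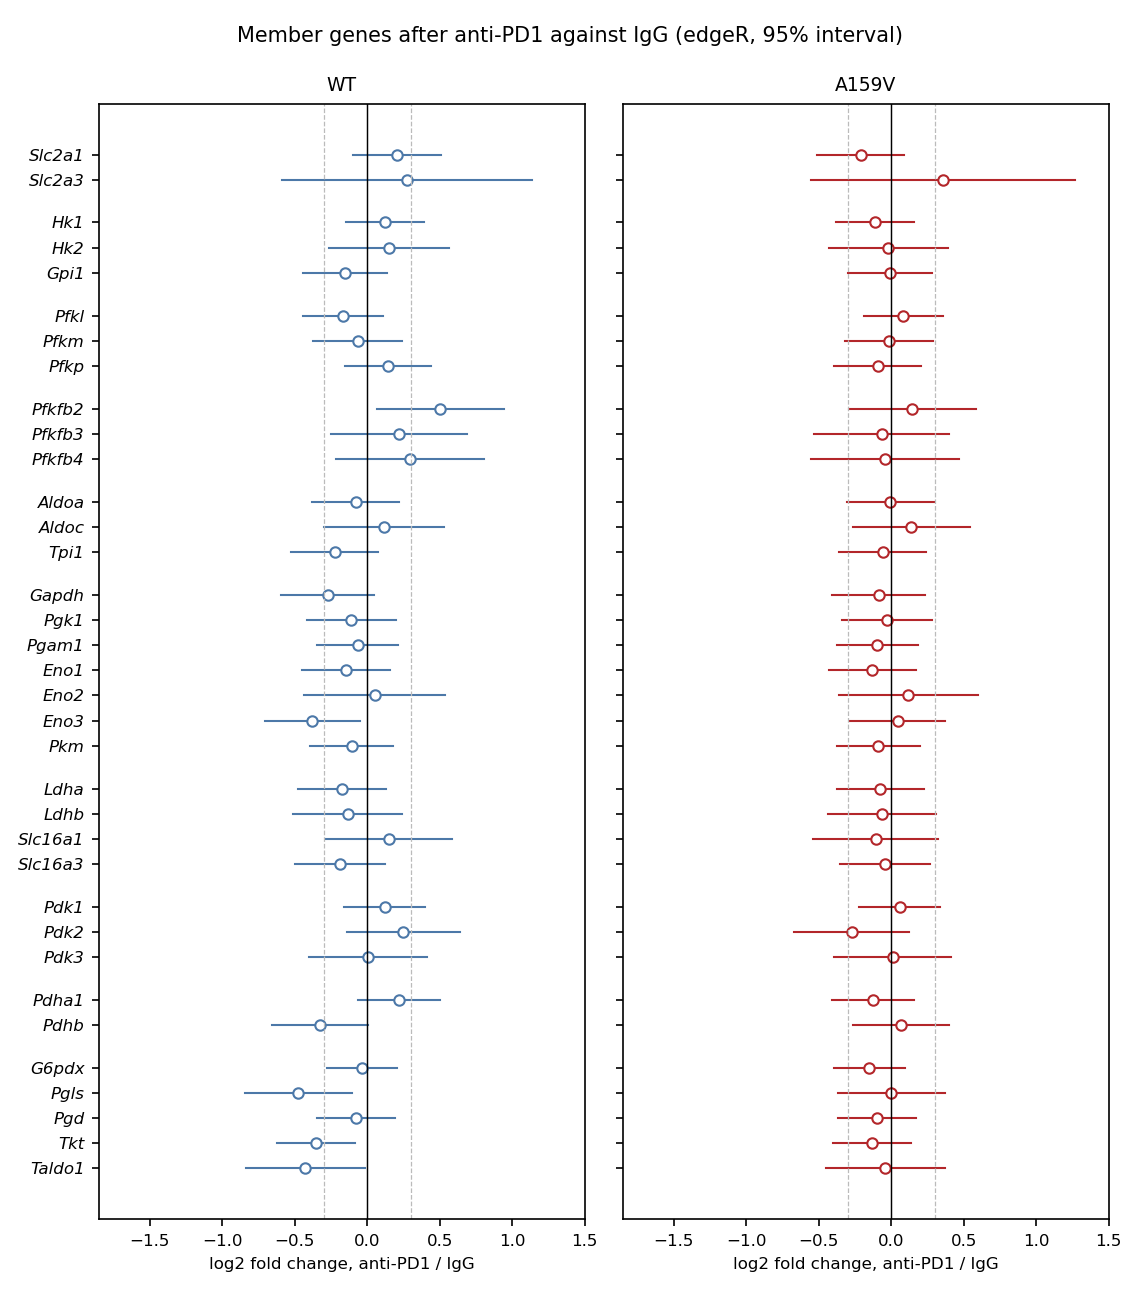
Log2 fold change of anti-PD1 against IgG for the 35 genes tested, in WT (left) and A159V (right), with 95% intervals from edgeR. No point is filled, since no gene was called, and the values lie between -0.48 and 0.50 in WT and between -0.27 and 0.35 in A159V.

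Of 79 other genes of glucose and pyruvate metabolism on lists made for this purpose, 56 were tested, and 17 were higher and 1 lower in A159V IgG, 32.1% against 28.0% of all genes. The lists were chosen with earlier results of these data known, so these shares are not an independent comparison. They include Eno1b, which may share reads with Eno1. Under anti-PD1 12 were higher and 3 lower, 26.8% against 21.4% of all genes. Called under both were Slc5a4a, Tigar, Dlat, Psat1, Psph, Gpd1l and Eno1b, all higher, and Txnip, lower. Txnip, which is induced by glucose and holds back its uptake, measured 55.4 ± 1.34 CPM (SD, n = 3) with IgG and 66.1 ± 7.20 CPM with anti-PD1 in WT cells, against 23.5 ± 5.63 and 16.5 ± 0.876 CPM in A159V cells. No A159V sample reached a WT sample, and the log2 fold changes were -1.24 ± 0.16 (SE, edgeR adjusted p = 0.00032) and -1.999 ± 0.17 (SE, edgeR adjusted p = 1.8e-05). Slc5a4a, of the sodium-glucose carrier family, rose from 8.53 ± 1.57 to 41.97 ± 6.197 CPM under IgG, a log2 fold change of 2.30 (edgeR adjusted p = 7.6e-05), and was 1.73 (edgeR adjusted p = 0.00037) higher under anti-PD1.

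Tigar, a fructose 2,6-bisphosphatase that diverts glucose 6-phosphate to the pentose phosphate pathway, was higher by 0.97 (edgeR adjusted p = 0.0012) and 0.96 (edgeR adjusted p = 0.0014). In the pyruvate dehydrogenase complex beyond E1, 2 of 6 genes tested were higher under either antibody, against 15.6% of all genes under IgG and 11.2% under anti-PD1. Dlat, the E2 subunit, was called in both, at 0.71 (edgeR adjusted p = 0.0043) and 0.69 (edgeR adjusted p = 0.0058), with Pdp2, a phosphatase that turns the complex on, at 0.96 (edgeR adjusted p = 0.0076) under IgG and Pdhx at 0.55 (edgeR adjusted p = 0.0092) under anti-PD1. In the serine branch off 3-phosphoglycerate, Psat1 was higher by 0.59 (edgeR adjusted p = 0.011) and 0.71 (edgeR adjusted p = 0.0047), Psph by 0.49 (edgeR adjusted p = 0.03) and 0.81 (edgeR adjusted p = 0.0027), and Phgdh under anti-PD1 by 0.56 (edgeR adjusted p = 0.016). Of the glycerol phosphate dehydrogenases, Gpd1l was higher by 0.75 (edgeR adjusted p = 0.0031) and 0.67 (edgeR adjusted p = 0.0064) and Gpd2 under IgG by 0.87 (edgeR adjusted p = 0.0057).

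Among the remaining genes called higher under IgG were Pcx, which carboxylates pyruvate, at 0.88 (edgeR adjusted p = 0.0011), and H6pd, the glucose 6-phosphate dehydrogenase of the endoplasmic reticulum, at 0.67 (edgeR adjusted p = 0.033). In glycogen metabolism, Pgm2 was at 0.73 (edgeR adjusted p = 0.0015), Gys1 at 0.43 (edgeR adjusted p = 0.037) and Pygb at 0.65 (edgeR adjusted p = 0.0027). Gfpt1, which opens the hexosamine pathway, was at 0.60 (edgeR adjusted p = 0.034), the coactivator Ppargc1a at 1.90 (edgeR adjusted p = 0.0084) and Hif1a at 0.81 (edgeR adjusted p = 0.044). Under anti-PD1, Rpia of the pentose phosphate pathway was at 0.48 (edgeR adjusted p = 0.041), Pck2 of gluconeogenesis at 0.37 (edgeR adjusted p = 0.039) and Hkdc1 at 1.66 (edgeR adjusted p = 0.037). Hkdc1 reached at most 1.28 CPM in any sample. Lower under anti-PD1 were Shpk, at -1.16 (edgeR adjusted p = 0.019), and Ldhd, at -0.90 (edgeR adjusted p = 0.029). Hif1a, the oxygen-regulated factor, overlapped between genotypes under IgG (92.9 ± 20.5 and 163 ± 71.1 CPM). Hypoxia genes outside glycolysis summed to 1396 to 1777 CPM in WT IgG and 1773 to 1797 CPM in A159V IgG. Their sums were 1651 to 1794 CPM in WT anti-PD1 and 1589 to 1839 CPM in A159V anti-PD1, so both pairs overlapped. Of 11 tested, 2 were higher and 1 was lower under IgG, 27.3% against 28.0% of all genes. Under anti-PD1 1 was higher, 9.09% against 21.4% of all genes. The proliferation markers summed to 1886 to 2108 CPM in WT anti-PD1 and 2411 to 2645 CPM in A159V anti-PD1, with 4 of 8 higher in the latter. Under IgG they overlapped, at 2227 to 2430 CPM in WT and 2168 to 2565 CPM in A159V, with 2 of 8 higher. Called were 50% and 25% of the 8, against 21.4% and 28.0% of all genes. The part of these markers in the values of the pathway was not tested.

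The calls differed in how they held under other settings. Under IgG, Pfkp, Pgd and Eno3 were called in each of 18 alternatives, and Slc2a1 was lost in 1, the fit to both groups alone. Eno1 and Pdha1 were lost in that fit and in one with a score of the leukocyte markers. G6pdx was lost in 2, the fit to both groups alone and the fit without WT IgG replicate 2. Slc16a1 was lost in 5, the fit to both groups alone, the leukocyte score, and without WT IgG replicate 2 or A159V IgG replicate 1 or 2. Aldoc was lost in 6 alternatives. Among these were upper-quartile scaling, the fit to both groups alone, the leukocyte score, the replicate block and the fit without A159V IgG replicate 5. Without the libraries least like their group, WT IgG replicate 1 and A159V IgG replicate 5, 13 of the 35 genes were called, 10 higher and 3 lower, while 36.7% of all genes were called. In that fit 8 of the 9 called from all samples were kept, all but Aldoc.

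Under anti-PD1, Pgd, Pfkp and Eno1 were lost in 1 alternative, the fit with the leukocyte score, in which none of the 35 genes and 2 of all 14340 genes were called by edgeR. Their log2 fold changes in it were 0.59 ± 0.53 (SE) for Pgd, 0.33 ± 0.58 for Pfkp and 0.62 ± 0.61 for Eno1, and the 35 genes had a median of 0.51, with 30 positive. Slc16a3 was lost in 5 alternatives, among them the fits without WT anti-PD1 replicate 3 or A159V anti-PD1 replicate 3, and Pdk2 in 3, with the leukocyte score and without WT anti-PD1 replicate 2 or 3. Aldoc was lost in 3, without WT anti-PD1 replicate 2 or 3 or A159V anti-PD1 replicate 3, and reversed in 1, with the leukocyte score. Tpi1 was lost in 10 alternatives and Ldha, Tkt and G6pdx in 12 each. From 10 of the 35 genes and 21.4% of all genes, the calls under anti-PD1 went to 6 and 14.8% without WT anti-PD1 replicate 1, 4 and 13.6% without its replicate 2, and 3 and 10.4% without its replicate 3. They went to 6 and 14.7% without A159V anti-PD1 replicate 1 and 4 and 11.3% without its replicate 3.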

How the data were processed

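RNA-seq was done on polyA-selected RNA of tumor cells from 12 mice. The authors sequenced paired reads of 100 bases, aligned them to mm10 with STAR and made the deposited counts per gene with summarizeOverlaps, then used DESeq2. The counting mode and strand are not given in the sources used here. The counts are raw and were fitted here with edgeR 4.0.16 (R 4.3.3, limma 3.58.1) by the quasi-likelihood test, after filterByExpr and TMM, with 1 factor of 4 groups over all 12 samples and 8 residual degrees of freedom, and p-values were adjusted by Benjamini-Hochberg over 14340 genes. DEGs needed an adjusted p below 0.05 together with a log2 fold change beyond 0.3 in size. All members were named, with values in every sample where called, for the most abundant isozymes and for genes the study names, and genes of the other lists were named where called. RPKM used merged exons of GENCODE M21. A count of 3 equals between 0.137 and 0.213 CPM, a floor for counting error alone. Members, marker lists and other lists were chosen with earlier results of these data known. Alternatives were RLE and upper-quartile scaling, other filters, DESeq2 1.42.0, voom, fits to the groups compared, a leukocyte score, the replicate block and leaving out each replicate. Added after seeing the data were leaving out both libraries least like their group, summing retrogene counts, and the settings for summed levels. The fits were tested on simulated data. Sums and shares were compared by two-sided exact permutation tests. Copies were found with blastn 2.17.0.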

Additional observations from a re-analysis of the deposited data

How the results depend on the processing

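The number of the 35 genes called in A159V IgG against WT IgG was 9, with 28.0% of all genes called. It was 3 in the fit to both groups alone (10.3% of all genes) and 5 with a leukocyte score in the model (8.97%). Leaving out 1 replicate gave 7 to 12 (17.5% to 32.0%). In A159V anti-PD1 against WT anti-PD1 it was 10. It was 13 in the fit to both groups alone, 6 with RLE size factors, 5 with upper-quartile scaling, 5 with at least 10 counts in every sample, 0 with the leukocyte score and 16 without both libraries least like their group, and leaving out 1 replicate gave 3 to 7. With the leukocyte score the log2 fold change of Aldoc under anti-PD1 reversed to -0.14, while the median of the 35 genes was 0.51, against 0.35, and 30 were positive, against 27. In WT anti-PD1 against WT IgG 0 genes were called, 1 (Pdk4) without a filter on low counts and 1 (Tkt) by DESeq2, and leaving out 1 replicate gave 0 to 5. In A159V cells anti-PD1 gave 0 in each alternative. The interaction gave 0 (0.00697% of all genes), and 0 to 1 without 1 replicate (0% to 8.07%). The causes were not tested. Summing the retrogene counts gave 9 and 8 in the genotype comparisons (25.9% and 20.3% of all genes). Over these alternatives and the block, the share of all genes called lay between 8.97% and 40.9% under IgG, against 28.0%, between 0.0139% and 38.5% under anti-PD1, against 21.4%, between 0% and 32.4% for anti-PD1 in WT, against 0.628%, and between 0% and 19.2% for the interaction, against 0.00697%.

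Samples with the same replicate number in different groups had deviations from their group means that correlated at r = -0.178 to 0.205 over 13 pairs. With groups of 3, such values cannot show whether the numbers stand for a pairing. Number 4 occurs only in WT IgG and number 5 only in A159V IgG, so a replicate block fits each of these libraries by itself. With the replicate block, 11 of the 35 genes were called in A159V IgG against WT IgG, against 40.9% of all genes. Under anti-PD1 16 were called, against 35.0% of all genes. For anti-PD1 against IgG 7 were called in WT, against 32.4%, and 0 in A159V, against 0%. For the interaction 1 (Pgls) was called, against 19.2% of all genes.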
